A study of Mus musculus with 8 samples.

Results

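A set of 8 genes, listed for the hormone and identity of the glucagon-secreting alpha cell, was followed in islets of Langerhans. The islets came from mice with and without a beta cell deletion of *Cnr1*, the gene of the cannabinoid 1 receptor (CB1R). The 8 genes were the hormone gene *Gcg*, the carrier protein genes *Ttr* and *Gc*, the transcription factor genes *Irx1*, *Irx2* and *Pou3f4*, and the membrane protein genes *Slc38a5* and *Dpp4*. They were chosen by name, with earlier results of these data known. Every array probe whose transcript accession belonged to one of these symbols was taken, which gave 10 of the 55681 probes on the array. *Irx2* and *Gc* had 2 probes each and the other 6 genes had 1. RNA came from 4 β-CB1R+/+ mice, labelled CB1 WT, and 3 β-CB1R-/- mice, labelled CB1 KO, all male C57BL/6 animals on standard diet. According to the study's methods, both groups were *Cnr1* flox/flox littermates injected with tamoxifen, and only the β-CB1R-/- mice carried MIP-Cre/ERT, a tamoxifen-inducible Cre recombinase driven by the mouse insulin promoter. The transgene and the deletion therefore went together, and the effects of one and the other cannot be told apart. One field of the sample labels speaks of global CB1 receptor knockout mice, whereas the series describes a deletion in beta cells, and the age of the mice on the arrays was not given in the sources used here. Islets were picked by hand after collagenase digestion, and 1-colour Agilent arrays measured all their cells at once, so that fewer cells of a type and less RNA per cell cannot be told apart. In its experiment with an insulin receptor antagonist, the paper reports similar alpha cell numbers in the genotypes and more beta cells in β-CB1R-/- mice.

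Alpha cells are the second most common endocrine cell of the mouse islet and lie mainly at its rim. They transcribe *Gcg*, whose precursor protein is cut by prohormone convertase 2 (*Pcsk2*) into glucagon, the hormone that raises hepatic glucose output, whereas prohormone convertase 1 (*Pcsk1*) releases glucagon-like peptide 1 from the same precursor. Alpha cell identity is held by transcription factors that include the Iroquois factors IRX1 and IRX2, while *Ttr* and *Gc* encode plasma transport proteins that the alpha cell shares with the liver.

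Levels are log2 intensities after subtraction of the array's 75th percentile, so a level of 0 is the brightness that 3 in 4 probes did not exceed, and a difference of 1 is a 2-fold difference. Levels of different probes are not comparable with each other. *Cnr1*, the targeted gene, lay between −1.11 and −0.02 in β-CB1R+/+ islets and between −3.13 and −2.28 in β-CB1R-/- islets, a difference of −1.97 (SE 0.33, limma adjusted p = 0.193). Every β-CB1R-/- mouse was below every β-CB1R+/+ mouse, in the direction the labels give, but whether this probe lies in the deleted stretch was not given in the sources used here. The arrays had 33314 to 39994 probes well above background, with overlapping ranges in the genotypes. The β-CB1R-/- mouse 2 was measured on 2 arrays, which were averaged. One slide carried all 8 arrays, and each genotype occupied its own side of it, so where an array sat and which genotype it held cannot be told apart. The β-CB1R-/- mouse 2 stood apart from the other 6 mice in liver genes, with *Alb*, the albumin gene, at 1.67 against −4.18 to −2.11, and the differences of the 8 genes are also given without it.

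The upstream regions of 3 genes are shown to place a hormone gene, a carrier gene and a transcription factor gene of the set next to each other. Each is the 250 bases before the transcript start in RefSeq (GRCm38.p6), written 5′ to 3′ on the strand of the gene, and capitals mark matches, on either strand, to TATAAA (the TATA box), TATTTAC (a FOXA-type motif) and an HNF1-type motif, which is GTTAAT followed after any 1 base by ATTAA. *Gcg* lies at chr2:62483654-62483903 on the minus strand, *Gc* at chr5:89457899-89458148 on the minus strand and *Irx2* at chr13:72628570-72628819 on the plus strand.
Gcg: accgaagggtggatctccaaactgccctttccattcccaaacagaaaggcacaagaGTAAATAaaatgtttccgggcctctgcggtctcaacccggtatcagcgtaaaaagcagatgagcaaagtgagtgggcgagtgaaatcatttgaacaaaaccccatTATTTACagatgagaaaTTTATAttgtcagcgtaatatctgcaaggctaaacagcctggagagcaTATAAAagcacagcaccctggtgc
Gc: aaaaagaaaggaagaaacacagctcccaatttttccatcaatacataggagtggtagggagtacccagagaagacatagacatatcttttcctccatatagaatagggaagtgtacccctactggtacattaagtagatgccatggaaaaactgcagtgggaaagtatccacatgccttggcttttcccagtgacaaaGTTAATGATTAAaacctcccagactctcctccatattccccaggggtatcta
Irx2: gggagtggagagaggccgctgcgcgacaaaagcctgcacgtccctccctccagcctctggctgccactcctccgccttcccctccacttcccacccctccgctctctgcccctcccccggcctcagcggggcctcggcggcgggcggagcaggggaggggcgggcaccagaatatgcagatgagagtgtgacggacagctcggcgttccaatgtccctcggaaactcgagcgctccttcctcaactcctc
The *Gcg* region held TATAAA at bases −24 to −19 before the start, and again on the other strand at −72 to −67. It held TATTTAC on its own strand at −89 to −83 and on the other strand at −194 to −188. Of 32851 RefSeq promoter regions of the same 250 bases, 12.4% held TATAAA and 2.73% held TATTTAC. The *Gc* region held the HNF1-type motif at −52 to −41, which was found in 0.0609% of the promoter regions. The *Irx2* region held none of these motifs, nor TGTTTAC (3.17% of regions) or the homeodomain core TAATTA (4.84%), and 68.4% of its bases were G or C, against 44.8% in *Gcg* and 42% in *Gc*. A match is a run of letters and not a measured binding site. A promoter entry was found for 6 of the 8 genes. In the genome *Gcg* sits on chromosome 2 with *Dpp4* and *Fap* as its protein-coding neighbours, and *Irx1* and *Irx2* are neighbours on chromosome 13, followed by *Irx4*.

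All 10 probes were well above background on all 8 arrays, and so all 8 genes were compared. By the brightest probe of each gene, 6 of the 8 had a lower mean in β-CB1R-/- islets and 2 a higher one, where 55.7% of the 16954 genes compared were lower. None of the 8 passed the adjusted threshold of 0.05 (limma, lowest adjusted p of any probe 0.909), a threshold that 0.11% of all 39166 probes compared and 0.171% of genes passed. At an unadjusted limma p under 0.05, 4 of the 8 genes (*Gc*, *Ttr*, *Irx1* and *Irx2*) were lower and none was higher, where 2.02% of all genes were lower and 1.88% higher. The count was 2 when β-CB1R+/+ mouse 1, 2 or 3 or β-CB1R-/- mouse 2 was left out. In 2 of the 8 genes, *Gc* and *Ttr*, every β-CB1R-/- mouse was below every β-CB1R+/+ mouse, as was the case for 2.21% of all genes. In none of the 8 was every β-CB1R-/- mouse above every β-CB1R+/+ mouse, as was the case for 2.62% of all genes. The median log2 fold change of the 8 genes was −0.58, against −0.04 over all genes. Because the 8 genes were chosen with earlier results of these data known, these counts and shares are not a test of the set.

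**Figure D1:**
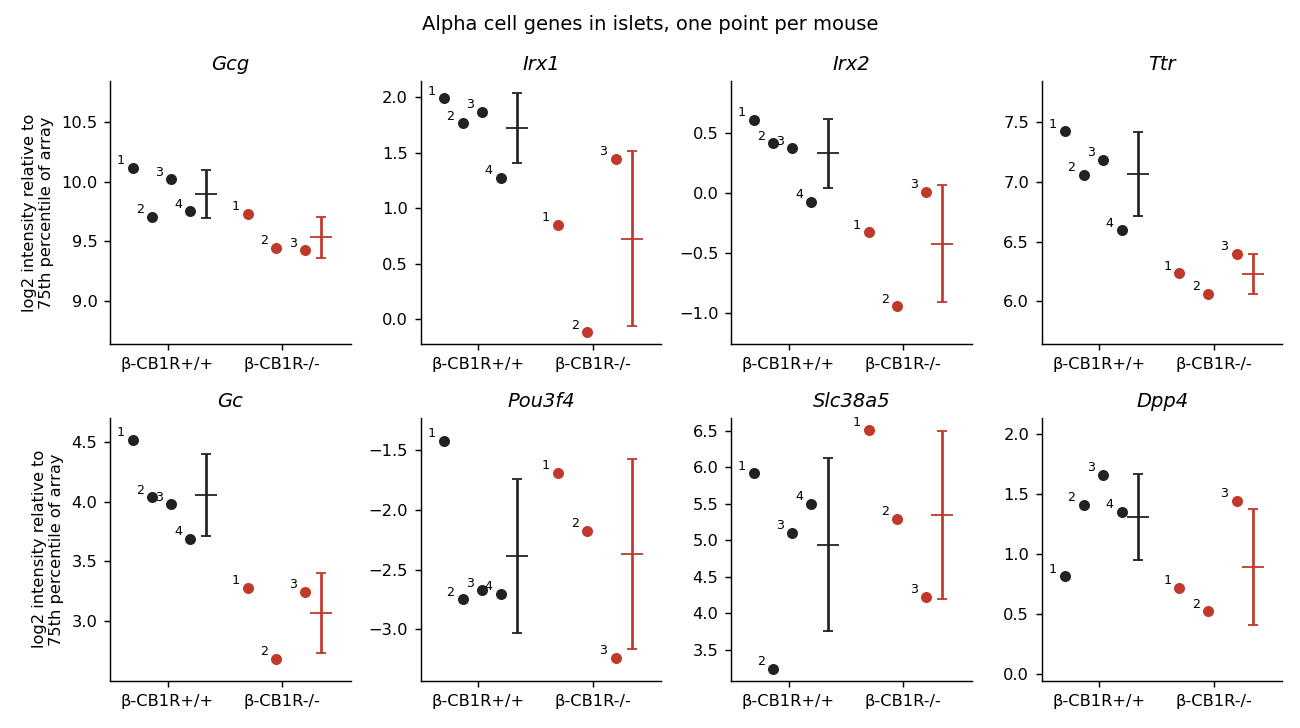
Level of each of the 8 genes (brightest probe) in islets of each mouse, as log2 intensity relative to the 75th percentile of the array. Points are mice, numbered as in the labels, with β-CB1R+/+ in black (n = 4) and β-CB1R-/- in red (n = 3), and bars give the mean ± SD. The genotypes do not overlap for *Ttr* and *Gc*, and do overlap for the other 6 genes.

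*Gcg* encodes the glucagon precursor and was read by 1 probe printed in 10 spots. In β-CB1R+/+ mice 1 to 4 its level was 10.12, 9.71, 10.02 and 9.75, and in β-CB1R-/- mice 1 to 3 it was 9.73, 9.45 and 9.43. The β-CB1R-/- mice 2 and 3 were the lowest of the 7, while β-CB1R-/- mouse 1 lay just above β-CB1R+/+ mouse 2. The means were 9.90 ± 0.20 (SD, n = 4) and 9.53 ± 0.17 (SD, n = 3), a difference of −0.36 on the log2 scale (SE 0.20, 95% CI −0.82 to 0.09), or 0.777 of the β-CB1R+/+ intensity. The difference did not pass the test (limma adjusted p = 0.999, exact permutation p = 0.114 over the 35 splits of the mice, two-sided, where 0.0286 is the smallest p possible). Without β-CB1R-/- mouse 2 it was −0.32, and with quantile normalisation it was −0.56.

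*Gc* encodes the vitamin D binding protein. Its brightest probe read 4.52, 4.04, 3.98 and 3.69 in β-CB1R+/+ mice 1 to 4, and 3.28, 2.69 and 3.25 in β-CB1R-/- mice 1 to 3. All 3 β-CB1R-/- mice were below the lowest β-CB1R+/+ mouse, and mouse 2 was the lowest. The difference was −0.98 (SE 0.26, 95% CI −1.59 to −0.38), an intensity 1.98-fold lower, with limma adjusted p = 0.921 and exact permutation p = 0.0286. The other *Gc* probe gave nearly the same difference, −1.02 (SE 0.27, limma adjusted p = 0.909), again with no overlap between the genotypes (exact permutation p = 0.0571). Without β-CB1R-/- mouse 2 the difference of the brightest probe was −0.79.

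*Ttr* encodes transthyretin, the carrier of thyroxine and of retinol-binding protein. It read 7.42, 7.06, 7.18 and 6.59 in β-CB1R+/+ mice 1 to 4, and 6.23, 6.06 and 6.40 in β-CB1R-/- mice 1 to 3. The genotypes did not overlap, although β-CB1R+/+ mouse 4 lay nearer to the β-CB1R-/- mice than to the other β-CB1R+/+ mice. The difference was −0.83 (SE 0.24, 95% CI −1.39 to −0.28), an intensity 1.78-fold lower (limma adjusted p = 0.999, exact permutation p = 0.0571). It was −0.75 without β-CB1R-/- mouse 2.

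*Irx1* and *Irx2* encode Iroquois homeobox factors of the alpha cell lineage. *Irx1* read 1.99, 1.77, 1.87 and 1.28 in β-CB1R+/+ mice 1 to 4, and 0.85, −0.12 and 1.45 in β-CB1R-/- mice 1 to 3. The β-CB1R-/- mice were spread over a wider range than the β-CB1R+/+ mice, and mouse 3 lay among the β-CB1R+/+ mice. The difference was −0.999 (SE 0.37, 95% CI −1.86 to −0.14, limma adjusted p = 0.999, exact permutation p = 0.0857). It was −0.58 when β-CB1R-/- mouse 2 was left out.

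The brightest *Irx2* probe read 0.61, 0.42, 0.38 and −0.07 in β-CB1R+/+ mice 1 to 4, and −0.33, −0.95 and 0.01 in β-CB1R-/- mice 1 to 3. The order of the β-CB1R-/- mice was the same as for *Irx1*, with mouse 2 lowest and mouse 3 above β-CB1R+/+ mouse 4. The difference was −0.75 (SE 0.28, 95% CI −1.40 to −0.10, limma adjusted p = 0.999, exact permutation p = 0.0857), and −0.49 without β-CB1R-/- mouse 2. The dimmer *Irx2* probe did not follow the brighter one. It read −1.70 in both β-CB1R+/+ mouse 1 and β-CB1R-/- mouse 1 and between −3.06 and −2.37 in the other mice, with a difference of 0.15 (SE 0.37, 95% CI −0.70 to 1.01).

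*Pou3f4* encodes the POU-domain factor Brain-4, which binds the *Gcg* promoter. It was dim, with a mean intensity of 52.0 units in β-CB1R+/+ and 55.0 units in β-CB1R-/- islets. It read −1.42, −2.75, −2.67 and −2.70 in β-CB1R+/+ mice 1 to 4, and −1.69, −2.18 and −3.24 in β-CB1R-/- mice 1 to 3. The difference was 0.02 (SE 0.46, 95% CI −1.04 to 1.08), an interval that holds a 2-fold change either way, and it was −0.08 without β-CB1R-/- mouse 2. Over the 4980 probes with a mean level between −3 and −2, the median deviation from the β-CB1R+/+ mean was 0.40 in β-CB1R+/+ mouse 1 and 0.32 in β-CB1R-/- mouse 1, and −0.38 in β-CB1R-/- mouse 3. *Pou3f4* and the dimmer *Irx2* probe were high in the same 2 mice as dim probes in general, and the part of this in their values was not tested.

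*Slc38a5* encodes a glutamine transporter known to be induced in alpha cells when glucagon signalling is blocked. It read 5.92, 3.24, 5.10 and 5.50 in β-CB1R+/+ mice 1 to 4, and 6.51, 5.29 and 4.22 in β-CB1R-/- mice 1 to 3. It had the widest range between mice of the 8 genes, 3.24 to 6.51, and the genotypes overlapped over most of it. The difference was 0.40 (SE 0.73, 95% CI −1.27 to 2.08, limma adjusted p = 0.999, exact permutation p = 0.657), and it was −0.16 without β-CB1R+/+ mouse 2, −0.18 without β-CB1R-/- mouse 1, 0.43 without β-CB1R-/- mouse 2, 0.96 without β-CB1R-/- mouse 3 and 0.73 without β-CB1R+/+ mouse 1.

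*Dpp4* encodes dipeptidyl peptidase 4, which inactivates glucagon-like peptide 1 and, in the genome, lies next to *Gcg*. It read 0.81, 1.41, 1.66 and 1.35 in β-CB1R+/+ mice 1 to 4, and 0.72, 0.52 and 1.44 in β-CB1R-/- mice 1 to 3. The β-CB1R-/- mice 1 and 2 were the lowest, but mouse 3 was the second highest of all. The difference was −0.42 (SE 0.30, 95% CI −1.11 to 0.27, limma adjusted p = 0.999, exact permutation p = 0.229), with −0.23 when β-CB1R-/- mouse 2 was left out and −0.69 when mouse 3 was. *Fap*, the neighbour on the other side of *Gcg*, encodes a related peptidase of fibroblasts and differed by 0.17 (SE 0.52).

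**Figure D2:**
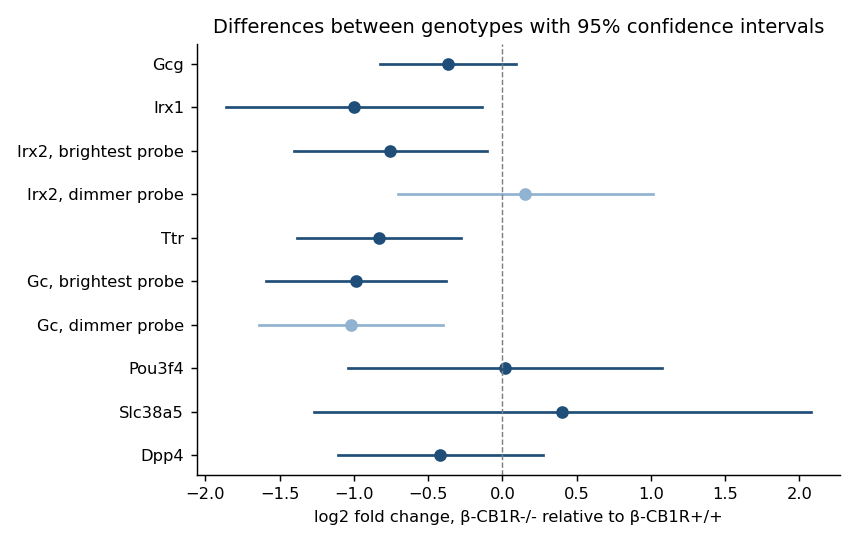
Difference between genotypes (log2, positive where β-CB1R-/- islets were higher) for all 10 probes of the 8 genes, with 95% confidence intervals from limma (4 and 3 mice). Dark points are the brightest probe of a gene and pale points the dimmer one. The intervals of both *Gc* probes, *Ttr*, *Irx1* and the brighter *Irx2* probe end below 0, without adjustment for the number of probes, and those of the other 5 probes include 0.

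The hormone was set against the transcription factors mouse by mouse, as the deviation of each gene from its β-CB1R+/+ mean. In β-CB1R-/- mouse 1 *Gcg* deviated by −0.17, and *Irx1* by −0.87 and *Irx2* by −0.66. In β-CB1R-/- mouse 2 *Gcg* deviated by −0.45, *Irx1* by −1.84 and *Irx2* by −1.28. In β-CB1R-/- mouse 3 the order was turned, with *Gcg* at −0.47, *Irx1* at −0.28 and *Irx2* at −0.32. By the brightest probes, the hormone was thus lower by less than the Iroquois factors in 2 of the 3 β-CB1R-/- mice and by more in the third. The dimmer *Irx2* probe deviated by 0.75, −0.17 and −0.12 in β-CB1R-/- mice 1 to 3, so that by this probe the *Gcg* deviation was the lower one in all 3. Bright probes in general also differed between mice. Among β-CB1R-/- mice their order was not that of *Gcg* itself, but that of *Gcg* minus the brightest *Irx1* or *Irx2* probe. The 72 probes with a mean level between 9 and 12, where *Gcg* lies, had median deviations of 0.42, 0.50 and −0.41 in β-CB1R-/- mice 1 to 3. Of these, 21 belonged to the acinar genes described below, whose median deviations were 0.62, 0.50 and −0.55. The other 51 had 0.38, 0.51 and −0.35, and can still hold acinar probes outside that list or without a gene name. For the 5482 probes between 1 and 3, where *Irx1* lies, the median deviations were −0.16, −0.12 and 0.07. The part of this in the hormone and factor values was not tested.

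The *Gcg* deviation minus that of *Irx1* lay between −0.23 and 0.30 in the 4 β-CB1R+/+ mice and was 0.70, 1.39 and −0.19 in β-CB1R-/- mice 1 to 3. The mean difference was 0.63, with 0.26 when β-CB1R-/- mouse 2 was left out and 1.05 when mouse 3 was. The same quantity for *Irx2* differed by 0.39 between genotypes, with 0.49, 0.83 and −0.15 in the β-CB1R-/- mice. It was 0.17 without β-CB1R-/- mouse 2, 0.66 without β-CB1R-/- mouse 3, 0.14 with a normexp background and 0.22 with quantile normalisation. Both overlapped between the genotypes. *Pou3f4* did not go with the Iroquois factors, since its deviation was 0.70 in β-CB1R-/- mouse 1, 0.21 in mouse 2 and −0.85 in mouse 3. The *Gcg* deviation minus that of *Pou3f4* was −0.87, −0.66 and 0.38 in these mice. It differed by −0.38 between genotypes (−0.76 to −0.14 with mice left out), and the genotypes overlapped.

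Relative to their β-CB1R+/+ means, the carriers were close to the Iroquois factors in β-CB1R-/- mouse 1 and lower than them in mouse 3. In mouse 2 *Ttr* deviated by less than both factors, and *Gc* lay between them. *Ttr* deviated by −0.83, −1.002 and −0.67 in β-CB1R-/- mice 1 to 3, and *Gc* by −0.78, −1.37 and −0.81. Of these 5 genes, *Ttr* and *Gc* had the narrower spread between β-CB1R-/- mice relative to their difference, and *Irx1* the widest range.

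**Figure D3:**
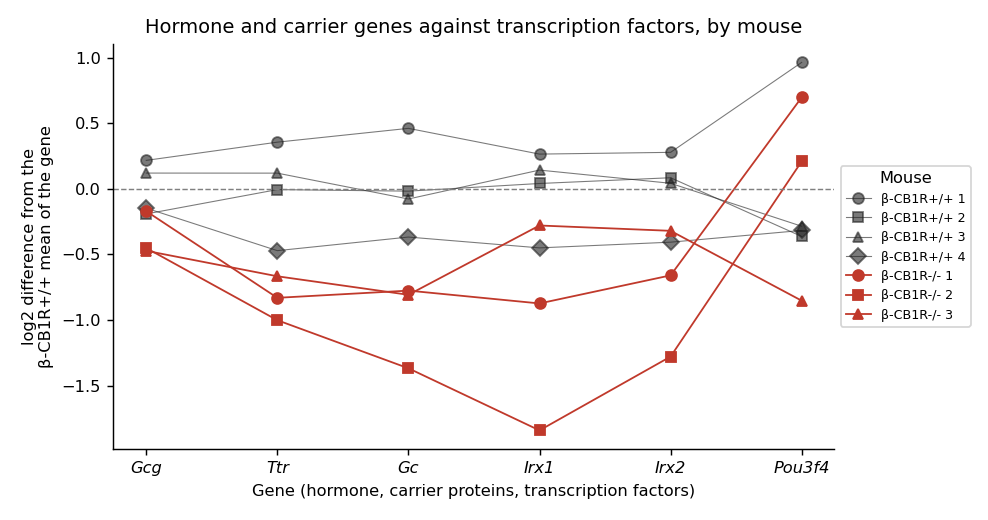
Deviation of each gene from its β-CB1R+/+ mean, in log2 units, for the hormone, the carriers and the transcription factors, with 1 line per mouse (β-CB1R+/+ black, β-CB1R-/- red, symbols by mouse number). The line of β-CB1R-/- mouse 2 is the lowest from *Ttr* to *Irx2*, while *Irx1* and *Irx2* of mouse 3 lie at −0.28 and −0.32, and the lines separate differently at *Pou3f4*.

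Hormones of other islet cells were read for comparison. *Ins1* differed by −0.11 (SE 0.23) and *Ins2* by 0.07 (SE 0.26), with overlapping genotypes. *Sst*, the somatostatin gene of delta cells, differed by −0.53 (SE 0.25) and was lowest in β-CB1R-/- mouse 2 at 8.14, as were *Irx1*, *Irx2*, *Ttr* and *Gc*. *Ppy*, the pancreatic polypeptide gene, differed by 0.54 (SE 0.61), and *Pyy* by −0.35 (SE 0.31, β-CB1R+/+ mouse 2 left out for an irregular spot). None of these 5 genes passed the test (limma adjusted p = 0.999 for each).

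Markers of other cells moved with some of the 8 genes. Acinar cells surround the islets and can be carried over during picking. The mean of β-CB1R-/- islets exceeded that of β-CB1R+/+ islets for 24 of 25 acinar genes (median 0.22, none past the threshold), and the summed level was 13.8 to 14.96 in β-CB1R+/+ and 14.1 to 15.1 in β-CB1R-/- mice. The acinar level was lowest in β-CB1R+/+ mouse 2 and β-CB1R-/- mouse 3, the 2 mice with the lowest *Slc38a5*, and highest in β-CB1R-/- mouse 1, which had the highest *Slc38a5*. *Slc38a3*, a relative of *Slc38a5*, had its lowest values in the same 2 mice, −0.29 and 0.24, against 1.30 to 2.44 in the others.

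With the mean of the acinar genes as a covariate, the *Slc38a5* difference was −0.02. In the same fit it was −0.98 for *Gc*, −0.82 for *Ttr*, −0.90 for *Irx1*, −0.69 for *Irx2* and −0.41 for *Gcg*, with the same direction as without the covariate. Liver genes share *Ttr* and *Gc* with the alpha cell. In β-CB1R-/- mouse 2, where *Alb* was highest, *Ttr* and *Gc* were at their lowest. This is 1 mouse, and the part of liver RNA in the *Ttr* and *Gc* levels was not tested. The summed liver marker level was 3.13 to 3.29 in β-CB1R+/+ mice and 2.83 to 4.44 in β-CB1R-/- mice. *Tat*, encoding tyrosine aminotransferase, was the 1 gene of the 8 liver genes compared that was below all β-CB1R+/+ mice in every β-CB1R-/- mouse (−0.54, SE 0.22), as were 2.21% of all genes.

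Markers of immune and stromal cells also differed between the mice. Of 15 macrophage and T cell genes, 14 were higher in the mean of β-CB1R-/- mice (median 0.36, none past the threshold), and their summed level was 5.82 to 6.13 in β-CB1R+/+ mice and 6.14 to 6.69 in β-CB1R-/- mice. The median deviation of these genes overlapped between the genotypes, with 0.27 in β-CB1R+/+ mouse 4 and 0.10 in β-CB1R-/- mouse 1. Of 11 stromal genes, 7 were higher and 4 lower (median 0.60), and their summed level was 6.22 in β-CB1R+/+ mouse 4, 3.19 to 3.76 in the other β-CB1R+/+ mice and 4.44 to 5.06 in β-CB1R-/- mice. *Gc*, *Ttr*, *Irx1* and *Irx2* were lowest among β-CB1R+/+ mice in that same mouse 4. The part of immune and stromal cells in the levels of the alpha cell genes was not tested. *Fos*, an immediate-early gene, was high in β-CB1R+/+ mice 3 and 4 and β-CB1R-/- mouse 2 (5.34 to 6.31, against −1.59 to 0.75 in the others). With the mean of the immediate-early genes as a covariate, the difference was −1.002 for *Gc*, −0.84 for *Ttr*, −1.03 for *Irx1*, −0.77 for *Irx2* and −0.37 for *Gcg*.

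**Figure D4:**
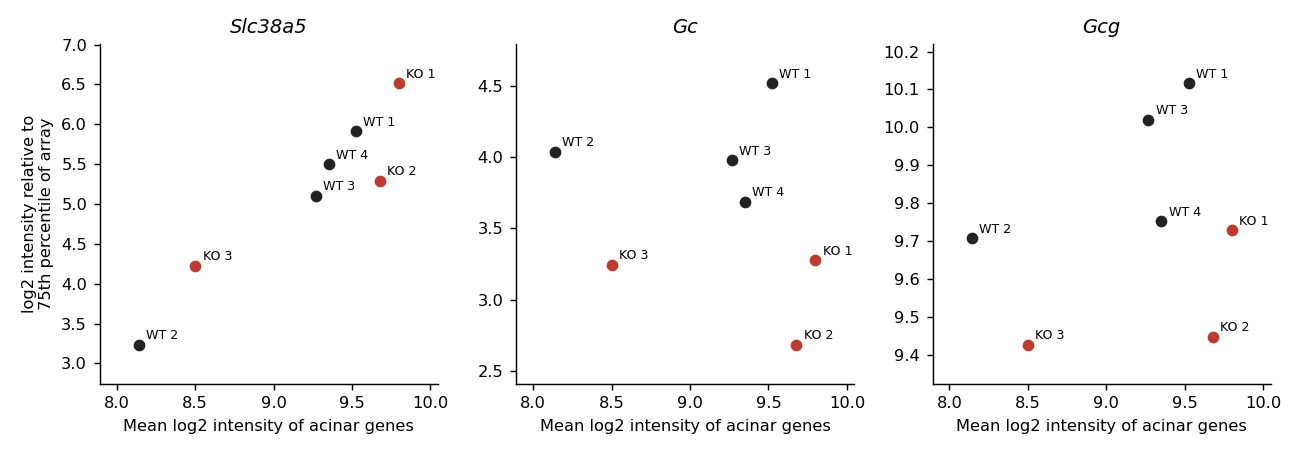
Level of *Slc38a5*, *Gc* and *Gcg* (log2 intensity relative to the 75th percentile) against the mean log2 intensity of the acinar genes, 1 point per mouse (WT, β-CB1R+/+, black, KO, β-CB1R-/-, red). *Slc38a5* is lowest in the 2 mice with the lowest acinar level, 3.24 and 4.22. For *Gc*, every β-CB1R-/- mouse is below every β-CB1R+/+ mouse. The lowest acinar means were 8.14 (β-CB1R+/+ mouse 2) and 8.50 (β-CB1R-/- mouse 3). Those of β-CB1R-/- mice 1 and 2 (9.80 and 9.68) were above the highest β-CB1R+/+ value, 9.52. The part of acinar cells in the *Gc* level was not tested.

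Wider lists around the alpha cell were read with the same fit, by the brightest probe of each gene, and in none of them did a gene pass the adjusted threshold. Of 15 further transcription factors of the alpha cell or of all islet cells, 11 were lower and 4 higher (median −0.29, or −0.17 without β-CB1R-/- mouse 2 and −0.45 without β-CB1R-/- mouse 3). At an unadjusted limma p under 0.05, 1 of the 15 was lower and none higher, against 2.02% and 1.88% of all genes. In this gene, *Etv1*, which encodes an ETS factor, the level was 3.49 to 3.92 in β-CB1R+/+ and 2.25 to 3.07 in β-CB1R-/- mice, with mouse 2 again the lowest (difference −0.96, SE 0.25, limma adjusted p = 0.863). The dimmer *Etv1* probe differed by −0.59 (SE 0.28), with overlapping genotypes.

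Of 10 genes that process or package prohormones, 9 were lower and 1 was higher, with a median of −0.39, or −0.24 without β-CB1R-/- mouse 1 and −0.70 without β-CB1R-/- mouse 3. *Scg2*, encoding a granin (−0.74, SE 0.21), and *Cpe*, encoding carboxypeptidase E (−0.62, SE 0.23), were below all β-CB1R+/+ mice in every β-CB1R-/- mouse. *Chgb*, encoding the granin chromogranin B, was above them in every β-CB1R-/- mouse, at 9.02 to 9.59 against 8.15 to 8.74 (difference 0.91, SE 0.23, limma adjusted p = 0.832). These 3 genes were also the ones at an unadjusted limma p under 0.05. Over all genes, 2.21% were below and 2.62% above all β-CB1R+/+ mice in every β-CB1R-/- mouse, and 2.02% and 1.88% passed the unadjusted threshold. The convertases overlapped between genotypes, with −0.29 (SE 0.23) for *Pcsk2*, −0.09 (SE 0.32) for *Pcsk1* and −0.55 (SE 0.28) for *Scg5*, the chaperone of prohormone convertase 2. These granule genes are also active in beta and delta cells.

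Of 11 receptors for proglucagon peptides or acting on alpha cells, 9 were lower and 2 higher, with a median of −0.24, or −0.11 with a normexp background, −0.13 over genes above background on all arrays and −0.15 without β-CB1R+/+ mouse 3. *Gcgr*, the glucagon receptor gene, read 4.23 to 4.73 in β-CB1R+/+ mice and 3.59, 3.74 and 4.52 in β-CB1R-/- mice 1 to 3 (difference −0.47, SE 0.27). Of 24 relatives of the 8 genes, 11 were lower and 13 higher, with a median of 0.02 whose sign was not stable (−0.09 to 0.16 with mice left out). The *Dpp4* relatives *Dpp10* (−1.19, SE 0.40) and *Dpp6* (−0.51, SE 0.21), which encode potassium channel subunits without peptidase activity, were the 2 genes of the 24 below all β-CB1R+/+ mice in every β-CB1R-/- mouse and the 2 at an unadjusted limma p under 0.05, against 2.21% and 2.02% of all genes. *Irx4*, the next Iroquois gene of the *Irx1* and *Irx2* cluster, differed by −0.08 (SE 0.37).

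Of 8 partners of the carrier proteins, 3 were lower and 5 higher, with a median of 0.07 that was −0.16 without β-CB1R+/+ mouse 1 and 0.17 without β-CB1R+/+ mouse 4. *Rbp4*, the retinol-binding protein that travels with transthyretin, differed by −0.51 (SE 0.25), with 4.86, 5.03 and 5.70 in β-CB1R-/- mice 1 to 3 against 5.48 to 5.88. Of 22 other alpha cell enriched genes, 12 were lower and 10 higher, with a median of −0.07 that was 0.11 without β-CB1R-/- mouse 3 and 0.02 without β-CB1R+/+ mouse 4. *Nxph1*, encoding a neurexin ligand (0.99, SE 0.30), and *Cd36*, a fatty acid transporter gene (0.93, SE 0.28), were above all β-CB1R+/+ mice in every β-CB1R-/- mouse, and *Fxyd6*, a regulator of the sodium pump (−0.83, SE 0.32), was below them, as was *Slc7a2*, an amino acid transporter gene (−0.43, SE 0.18). Of all genes, 2.21% were below and 2.62% above all β-CB1R+/+ mice in every β-CB1R-/- mouse. *Nxph1* and *Cd36* were dim, with mean intensities of 39.8 and 67.7 units in β-CB1R+/+ islets and 81.1 and 132 units in β-CB1R-/- islets. At an unadjusted limma p under 0.05 there were 4 lower and 2 higher genes of the 22, where 2.02% of all genes were lower and 1.88% higher. For comparison, 11 of 13 beta cell markers were lower with a median of −0.19, and 7 of 9 delta, PP and epsilon cell markers were lower with a median of −0.35.

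**Figure D5:**
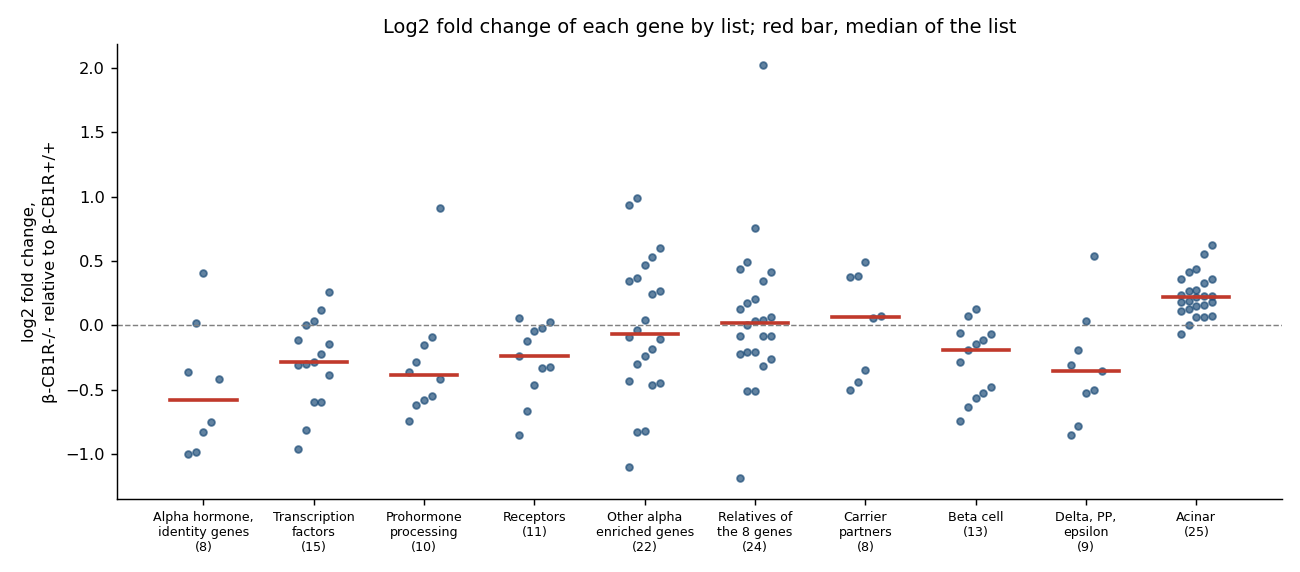
Difference between genotypes (log2, positive where β-CB1R-/- islets were higher) of each compared gene in 10 gene lists, with the number of genes in brackets under each name and the median as a red bar. The 8 alpha cell genes have a median of −0.58, prohormone processing genes of −0.39 and acinar genes of 0.22.

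The genes whose level went most like that of *Gcg* over the 7 mice were sought among 13847 genes well above background on all arrays. They were *Calca*, which encodes calcitonin and its gene-related peptide (Pearson r = 0.993), *Tex22* (0.975), *Cacna1h*, which encodes a T-type calcium channel (0.957), *Phactr2* (0.955) and *Pabpn1l* (0.950). All 5 had levels below 0, and the points share the arrays and the RNA, so the values describe these 7 mice. Under a normexp background, quantile normalisation or median scaling, 1, 0 and 1 of these 5 were among the 5 most like *Gcg*. Among the 8 genes themselves, *Gc* had r = 0.86 with *Gcg* (rank 50), *Ttr* 0.84 (rank 77), *Irx2* 0.72 (rank 349), *Irx1* 0.68 (rank 538), *Pou3f4* 0.49 (rank 1911), *Slc38a5* 0.34 (rank 3384) and *Dpp4* 0.16 (rank 5653). These values include the difference between genotypes. With each genotype centred on its own mean the order was another, with *Pou3f4* and *Slc38a5* at 0.75, *Gc* at 0.64, *Ttr* at 0.58, *Irx2* at 0.35, *Irx1* at 0.29 and *Dpp4* at −0.39.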

How the data were processed

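Islet RNA of 4 β-CB1R+/+ and 3 β-CB1R-/- mice was hybridised to 8 arrays. The authors deposited a spot intensity from Feature Extraction 11.5.1.1, corrected for background and spatial trend but not scaled between arrays, and a Z score of the log10 intensity per spot. From the intensity, spots marked as irregular were left out, log2 was taken, the 75th percentile of each array was subtracted, spots of 1 probe were averaged, and the repeat arrays of β-CB1R-/- mouse 2 were averaged. No spot was saturated.

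The 39166 probes that exceeded background clearly in 3 or more of the 7 mice entered 1 two-sided fit with limma 3.58.1 (lmFit, eBayes) in R 4.3.3. Their p-values were adjusted by Benjamini-Hochberg, with a threshold of 0.05. Single probes also had an exact permutation test (35 splits of the mice). The number of arrays limits the precision. The labels do not say which litters the mice came from, so p-values measure the spread between these samples. Gene names came from matching accessions to RefSeq (GRCm38.p6). One symbol was found for 28026 probes and none for 27655. The array header names mm9, so no gene coordinates of the probes are given.

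The 8 genes and all lists were chosen with earlier results of these data known. Named were the 8 genes, a set of marker genes whatever their values (some of these are not reported here), up to 3 genes per list at an unadjusted p under 0.05 without overlap between genotypes, and the 5 genes most like *Gcg*; *Alb*, *Slc38a3* and *Slc7a2* were named after their values were seen. The alternatives are in the closing section; the covariates were added after the data were seen. The fit was tested on simulated data.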

Additional observations from a re-analysis of the deposited data

Results flagged for a closer look

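Among the levels of 26 probes in the 4 β-CB1R+/+ mice, 1 had a mouse far from the others. *Pou3f4* read −1.42 in β-CB1R+/+ mouse 1 against −2.75 to −2.67 in the other 3 mice. Chance gives such a gap in about 1 in 20 groups, or 1.3 of 26.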

How the results depend on the processing

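No member gene passed the adjusted threshold under any of the 20 alternatives, and *Gcg*, *Irx1*, *Irx2*, *Ttr*, *Gc* and *Dpp4* were lower in β-CB1R-/- islets under all of them. With mice left out in turn, *Gcg* ranged from −0.46 to −0.29 (−0.56 with quantile normalisation), *Gc* from −1.11 to −0.79, *Ttr* from −0.99 to −0.71, *Irx1* from −1.36 to −0.58 and *Dpp4* from −0.69 to −0.23. The genes at an unadjusted limma p under 0.05 numbered 4, but 2 without β-CB1R+/+ mouse 1, 2 or 3 or β-CB1R-/- mouse 2, 3 without β-CB1R-/- mouse 1, 5 without β-CB1R-/- mouse 3, with normexp or with the acinar covariate, and 3 by the methods' t-test, which called 0 after adjustment. *Pou3f4* changed sign with normexp (−0.065), array 2-2 alone (−0.093), the replicate block (−0.087), the acinar covariate (−0.18) and mice left out (−0.32 to 0.45). *Slc38a5* changed sign with the acinar covariate (−0.019) and with mice left out (−0.18 to 0.96).

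Of all probes, 43 passed the threshold. This was 23 with dim probes kept, 24 when background had to be exceeded on each array, 0 by the methods' t-test (1412 unadjusted), 17 with the acinar and 16 with the immediate-early covariate, and 0 to 42 with mice left out (0 without β-CB1R-/- mouse 2, 785 unadjusted). With the replicate number as a block over mice 1 to 3 it was 0 (1714 unadjusted limma p under 0.05), while leaving out β-CB1R+/+ mouse 4 without the block gave 19. The deviations of same-numbered mice correlated at r = 0.42 for mice 1, but at −0.27 and −0.06 for mice 2 and 3, so the numbers were not taken to pair the mice.

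The deposited Z scores, in Z units, gave medians of −0.20 for the 8 genes, −0.11 for the transcription factors and −0.086 for the receptors. With mice left out, the median ranged from −0.80 to −0.41 for the 8 genes, −0.45 to −0.17 for the transcription factors, −0.70 to −0.24 for prohormone processing and −0.29 to −0.15 for the receptors. The median of carrier partners ranged from −0.16 to 0.17 with mice left out. That of other alpha cell enriched genes was 0.023 under the replicate block and −0.10 to 0.11 with mice left out. Of the 5 genes most like *Gcg*, 1 remained with normexp, 0 with quantile normalisation and 1 with median scaling. The cause of these changes was not tested. The normexp alternative used median spot intensities.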
